A study of Homo sapiens with 2 samples.

Results

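The genes described here set the pace of the G1 phase of the cell cycle: the kinases CDK4 and CDK6, their partners cyclin D1, D2 and D3 (CCND1, CCND2 and CCND3), the inhibitors encoded by CDKN2A, CDKN2B, CDKN1A and CDKN1B, and their substrate RB1. They were chosen by name, and an interaction was counted for a gene when either of its bins overlapped the GENCODE gene body on hg38 or the 10 kb on each side. By this rule 115 of the 49245 listed interactions belonged to the 10 genes. CDK6 held 52, RB1 35, CCND3 16, CDKN1B 5, CDK4 4, CCND2 2 and CDKN1A 1, while CCND1, CDKN2A and CDKN2B held 0.

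The interactions come from HAL-01, a human B cell acute lymphoblastic leukemia line that carries the t(17;19) translocation and its fusion transcription factor TCF3::HLF. In the HiChIP used here, crosslinked chromatin fragments bound by a protein were pulled down with an antibody. Pieces that had lain close together in the nucleus were then ligated and sequenced. A read pair with ends in separate bins thus records a contact. Cas9-GFP HAL-01 cells in which a guide had inactivated the remaining wild-type TCF3 (genotype wt-TCF3 KO), grown from a diluted single clone, were used with an antibody against E2A, the product of TCF3, part of which the fusion keeps. There were 2 replicates of this 1 condition, without treatment and without a control group, and the authors pooled their reads before calling. Every value below is therefore 1 value from 1 merged list, without a replicate error or a test between groups, and the intervals given cover counting error only. The contact counts of the list sum to 1268490 and range from 7 to 615 per interaction, with a median of 24.

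As background, D-type cyclins bind CDK4 and CDK6 when growth signals are present, and the active kinases phosphorylate the RB1 protein, which otherwise holds E2F transcription factors in check. The INK4 inhibitors p16 (CDKN2A) and p15 (CDKN2B) bind CDK4 and CDK6 directly, whereas p21 (CDKN1A) and p27 (CDKN1B) act on cyclin-CDK complexes more widely. CDK6 and CCND3 are the forms best known from lymphoid precursors, and loss of CDKN2A and CDKN2B is frequent in acute lymphoblastic leukemia. HLF is a basic leucine zipper protein, and TCF3::HLF keeps its DNA-binding domain and reads a short palindromic sequence. The exact sequences TTACGTAA and TTATGTAA were searched here on both strands and are called HLF motifs. A match describes the sequence and is not a measured binding site.

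In the 127 anchor bins of these genes there were 60 HLF motifs, of which 54 were TTATGTAA and 6 TTACGTAA. Introns of the member genes held 27 of them, exons held 0, and 33 lay outside the member's body. The following 30-base stretches of hg38 surround the motifs in some of the bins that the text returns to. They are written 5′ to 3′ along the strand named, with the motif in capitals and 11 bases on each side. Bin A is chr7:92720001-92725000 and bin B chr7:92825001-92830000, both in CDK6.
CDK6 intron, bin A, chr7:92722150-92722179, plus strand: aatatcatttaTTATGTAAatatatatata
CDK6 intron, bin A, chr7:92724212-92724241, minus strand: cccttgtattcTTATGTAAtcacaccagaa
CDK6 intron, bin B, chr7:92826276-92826305, minus strand: tattatttctgTTATGTAAgatggaatgtt
CDK6 intron, bin B, chr7:92827970-92827999, minus strand: gctctggcacaTTATGTAAcattctggtta
CDK6 intron, bin B, chr7:92827993-92828022, plus strand: ccagagccacaTTATGTAAtatttcattca
CDK6 intron, partner of bin A, chr7:92619283-92619312, minus strand: caatgtataagTTATGTAAgtccattgacc
CDK6 intron, partner of bin B, chr7:92736163-92736192, plus strand: tatattatagaTTATGTAAtatatatttat
ITM2B, partner of RB1, chr13:48235626-48235655, minus strand: gccagagaacaTTATGTAAtcactgcccaa
ITM2B, partner of RB1, chr13:48236387-48236416, minus strand: agatcaagtagTTATGTAAtgacaaaactg
ITM2B, partner of RB1, chr13:48236507-48236536, minus strand: gccaaatataaTTATGTAAtcctagcatct
ITM2B, partner of RB1, chr13:48236677-48236706, plus strand: gggtagaggtaTTATGTAAtaaagcacatt
ITM2B, partner of RB1, chr13:48237241-48237270, plus strand: ttattacctagTTATGTAAttccgtgtttg
RB1 intron, far bin, chr13:48560243-48560272, plus strand: tatgatcctatTTATGTAAcagtttaaagg
RB1 flank, partner of ITM2B, chr13:48293517-48293546, minus strand: ttgcctataagTTATGTAAtgactcctttt
RB1 flank, partner of ITM2B, chr13:48293708-48293737, minus strand: gccaatttctgTTATGTAAacactcccacc
RB1 start bin, upstream, chr13:48301511-48301540, minus strand: ctagattacatTTATGTAAtctagatttat
RB1 start bin, upstream, chr13:48303012-48303041, plus strand: aaataagacaaTTATGTAAggtggccagca
CCND3 intron, bin of the upstream starts, chr6:42047086-42047115, plus strand: acctgacagtgTTATGTAActgttagctag
MARS1, partner of CDK4, chr12:57496964-57496993, minus strand: attacattctaTTATGTAActgctgactgg
DUSP16, partner of CDKN1B, chr12:12560439-12560468, minus strand: catttacagtcTTATGTAAaaatataggct
In all, hg38 holds 223007 exact motifs, and 46 of the 127 anchor bins of these genes held at least 1 (36.2%, beside 31.5% of the anchor bins of the list).

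Having an interaction at all was not unusual. Of the 10 genes, 7 had at least 1, beside 64.5% of the 19970 protein-coding genes under the same rule. The interactions were concentrated in a few genes: CDK6, RB1 and CCND3 together held 103 of the 115 (89.6%). No interaction joined the windows of 2 member genes, but the list could hardly hold one. Members on the same chromosome lay more than 3 Mb apart, beyond its limit, except CDKN2A and CDKN2B, whose windows overlap. Since a long gene offers more bins, the number was also read per length: CDK6 had 20.7 interactions per 100 kb of its 252-kb window, CDK4 14.1, CCND3 11.8, RB1 11.1, CDKN1B 8.79, CCND2 3.60 and CDKN1A 3.24. The median over all protein-coding genes was 2.23 per 100 kb and the 90th percentile 11.7, so CDK6, CDK4 and CCND3 lay above that percentile and RB1 just under it. Against genes whose window was 0.8 to 1.25 times as long, CDK6 ranked 13 among 860 (median 6 interactions), RB1 47 among 632 (median 8) and CCND3 161 among 1883 (median 4).

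**Figure D1:**
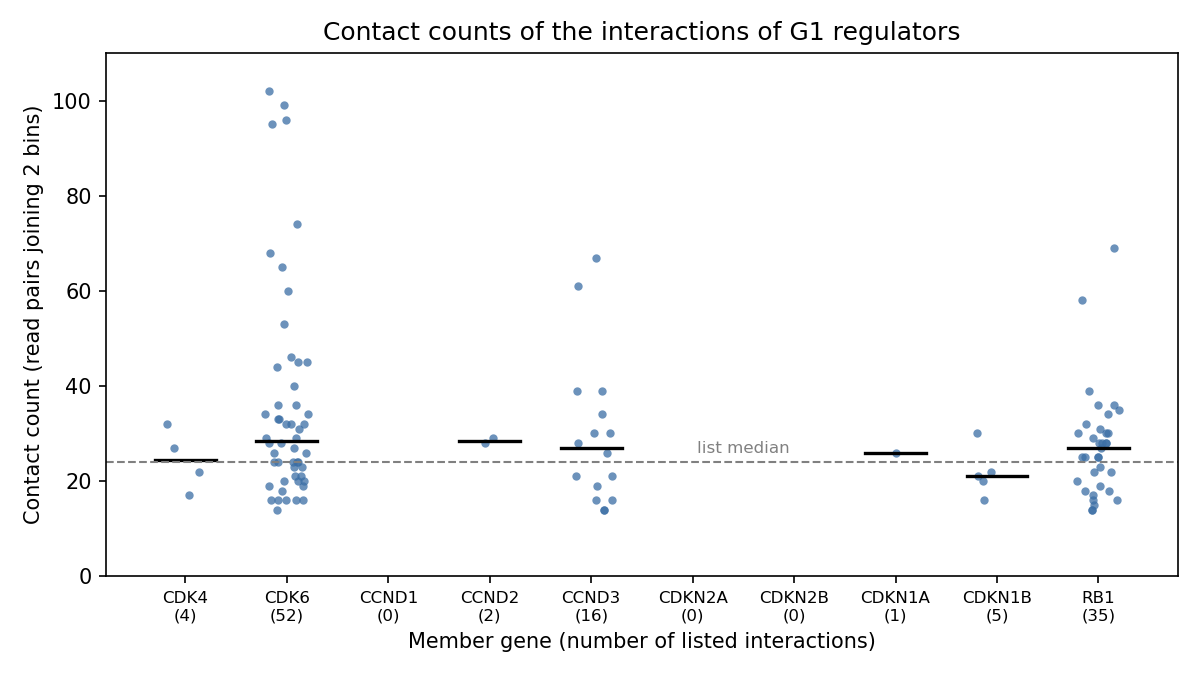
Contact count (y axis, read pairs that join the 2 bins) of each of the 115 interactions, by gene (x axis, number of interactions in parentheses). Points are single interactions, black bars the median of each gene and the dashed line the median of the whole list (24); the 4 highest points, 95 to 102, all belong to CDK6, and 3 genes have no point.

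The median contact count of the 115 interactions was 27 (95% interval 24 to 29), beside 24 for the list. It was 28.5 (24 to 33) in CDK6, 27 (22 to 30) in RB1 and 27 (16 to 39) in CCND3. These 3 intervals overlap one another, and each includes the list's median. The upper end of the range set CDK6 apart: of the 11 interactions with a contact count of 60 or more (9.57%, beside 1.41% of the list, a limit chosen after the values were seen), 8 were in CDK6, 2 in CCND3 and 1 in RB1. Because typical contact counts differ between distances, each was also set against the median of all listed interactions at the same distance. By that measure 70 of the 115 (60.9%) were above their median, beside 47.6% of the list. Many of these interactions share an anchor bin and are not independent of each other.

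An annotated start site of the member itself lay in a bin of 41 of the 115 interactions: 18 in CDK6, 11 in CCND3, 6 in RB1, 4 in CDK4 and 2 in CDKN1B. A start site of any protein-coding gene lay in a bin of 24.0% of the listed interactions. That is another measure, and the 115 were selected for touching a gene window, so the shares cannot be compared directly. Among all protein-coding genes, 26.6% had an interaction at a start-site bin of their own, as did the members just named. Most of the 41 used alternative or internal starts, since the start of the canonical transcript was in a bin of 6, 5 of them in RB1 and 1 in CDK4. Start sites of other protein-coding genes were in a bin of 26, and 57 had no protein-coding start site in either bin.

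The interactions spanned a median of 170 kb (140 to 230), beside 255 kb for the list, and 13 (11.3%) spanned more than 1 Mb, beside 13.7%. A q-value under 1e-05 was listed for 80 (69.6%, beside 66.5%). FitHiChIP joins neighboring significant bin pairs into groups, and 99 of the 115 (86.1%) were single pairs, beside 92.3%. At least 1 of the bins held an HLF motif in 75 interactions (65.2%, Wilson 95% interval 56.1 to 73.3), beside 66.8% of the list, and both bins did in 23 (beside 16.2% of the list). Bins placed 25 kb outside each pair held a motif for 46.1% of the 115 and for 48.4% of the list. The motif share of these genes was therefore at the level of the whole list. By gene, a motif was present in 29 of the 52 CDK6 interactions (55.8%, Wilson 95% interval 42.3 to 68.4), 27 of 35 in RB1 (77.1%, 61.0 to 87.9), 11 of 16 in CCND3 (68.8%, 44.4 to 85.8), 5 of 5 in CDKN1B, 2 of 4 in CDK4, 1 of 2 in CCND2 and 0 of 1 in CDKN1A. The intervals of CDK6, RB1 and CCND3 overlap, and 10 of the 27 in RB1 end in 1 motif-bearing bin of ITM2B. The bins 25 kb outside held a motif for 38.5% of the CDK6, 65.7% of the RB1 and 18.8% of the CCND3 interactions.

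CDK6 (ENSG00000105810, chr7:92604921-92836573, minus strand), the cyclin D kinase prominent in blood cells, had the most interactions, and only 60 of the protein-coding genes had more. All 52 ended in at least 1 of 5 bins inside the gene, picked as those with 5 or more of these same interactions. These were a bin at chr7:92725001-92730000 with 15 interactions, one at chr7:92775001-92780000 with 15, bin A with 10, bin B with 8, and one at chr7:92645001-92650000 with 6. They lie 109, 59.1, 114, 9.07 and 189 kb into the gene from the start of its canonical transcript. Anchor bins with 10 or more interactions made up 2.10% of all anchors, and 3 of the 5 were of that kind. Motifs were present in bin A (2) and bin B (3) and were not found in the other 3. The bin at 109 kb holds the annotated start of a short CDK6 transcript, and the bin at 189 kb that of a long noncoding RNA, ENSG00000286742. The bin of the canonical start, which begins at chr7:92835001, was not an anchor.

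Interactions between parts of the CDK6 gene were the strongest. The largest contact count, 102 (exact Poisson 95% interval 83.2 to 124), joined bin A to chr7:92615001-92620000, 105 kb away near the 3′ end of the gene. That was 4.08 times the median of interactions at this distance, and rank 2 among 686. Bin B had 99 contacts (80.5 to 120.5) with chr7:92735001-92740000, 90 kb away, and 96 (77.8 to 117) with chr7:92635001-92640000, 190 kb away, the highest of 420 interactions at that distance. Bins A and B themselves were joined by 95 contacts (76.9 to 116), and the merged group around that pair summed to 255. The intervals of these 4 counts overlap, so their order is not resolved by counting error. Next came 74 contacts (58.1 to 92.9) of bin A with chr7:92625001-92630000 and 68 (52.8 to 86.2) with chr7:92800001-92805000. The bins at 109 and 59.1 kb, which hold no motif, were joined by 60 contacts (45.8 to 77.2) over 50 kb. Of the sequences shown above, the 5 of bins A and B and the 2 of their partners thus sit at 3 of the 4 strongest contacts on both ends, while the partner of the 96 contacts holds no motif.

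**Figure D2:**
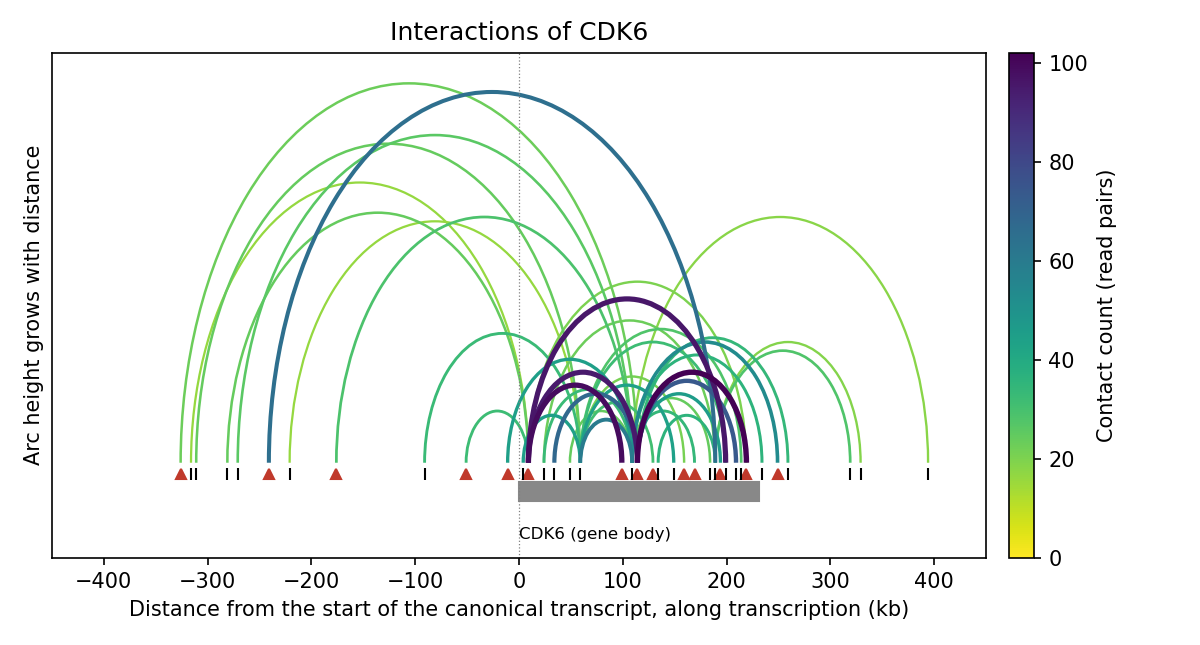
Interactions of CDK6 with both ends within 450 kb of the canonical start (38 of 52), drawn as arcs over distance along transcription (x axis, kb); arc height grows with the distance between bins and color gives the contact count. Red triangles are anchor bins with an HLF motif, black ticks anchor bins without one and the gray bar is the gene body: the darkest arcs, 95 to 102 contacts, all join bins inside the gene.

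Interactions with both ends in the CDK6 window numbered 23, with a median of 36 contacts. A further 16 reached upstream, with a median of 24 contacts, and 13 reached downstream, with a median of 20. These medians are of raw counts over unlike distances. Pairs inside the window are limited by its length, while the others reach up to 2635 kb. The strongest of those that left the gene joined the 189-kb bin to chr7:93075001-93080000 on the SAMD9 side, 430 kb away, with 65 contacts (50.2 to 82.8), the highest of 190 at that distance. On the other side, 53 contacts (39.7 to 69.3) joined the 109-kb bin to FAM133B. The start-site bin of SAMD9 had 24 contacts with bin B, that of SAMD9L 24 with the 59.1-kb bin, and that of FAM133B 34 with bin A. SAMD9 and SAMD9L are neighboring genes that restrain cell proliferation.

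Of the 52 interactions, 8 spanned more than 1 Mb. Bin A had 40 contacts (28.6 to 54.5) with the start-site bin of SGCE at a distance of 1895 kb, the highest of 11 interactions at that distance. The 109-kb bin had 29 contacts (19.4 to 41.6) with the start-site bin of PON3 at 2635 kb, the longest distance among the 115 interactions. Another 3 ended inside the body of CDK14, a cyclin-dependent kinase gene on the same chromosome, with 27, 19 and 14 contacts; CDK14 itself had 90 interactions. Start sites of the CDK6 gene lay in a bin of 18 interactions, start sites of other protein-coding genes in 10, and 26 had neither. The short transcript's bin accounts for 15 of the 18, so these counts depend on which annotated starts are accepted. Of the noncoding genes nearby, ENSG00000286742 shared 12 of its 12 interactions and CDK6-AS1 11 of its 11 with CDK6.

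CDK4 (ENSG00000135446, chr12:57747727-57756013, minus strand), the other cyclin D kinase, lies in a dense run of short genes. Its 4 interactions fell in a 28.3-kb window, where genes of like window had a median of 0, and it ranked 426 among 5618 of them. The counts were 32 (21.9 to 45.2) and 22 (13.8 to 33.3) with the same bin of MARS1, 250 and 260 kb away, 27 (17.8 to 39.3) with a bin near CTDSP2 at 120 kb, and 17 (9.9 to 27.2) with CTDSP2 at 80 kb. All 4 had a CDK4 start site in the near bin. The MARS1 bin carries 1 motif, shown above, and 6 interactions in all. TSPAN31 and MARCHF9, which overlap or adjoin CDK4, shared all 4 interactions, so the bins cannot assign them to CDK4 alone.

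CCND3 (ENSG00000112576, chr6:41934934-42050357, minus strand) encodes cyclin D3. Of its 16 interactions, 10 ended in 1 bin, chr6:42045001-42050000, which holds 10 of the 18 annotated start positions of the gene. It lies near the upstream end of the gene, whose outermost start falls just outside it. The bin contains 1 motif, shown above. Its contact counts ranged from 14 to 61 with a median of 25.5. The highest, 61 (46.7 to 78.4), joined it to USP49 at a distance of 230 kb, rank 5 among 334 interactions at that distance, and a neighboring bin of USP49 had 39. The merged group of these pairs summed to 187. The same bin had 39 contacts (27.7 to 53.3) with the 3′ bin of CCND3, chr6:41935001-41940000, and 30 (20.2 to 42.8) with the start-site bin of TFEB, which encodes a transcription factor of lysosome genes, 315 kb away. Weaker contacts reached a bin near TREM2 at 880 kb (21), TRERF1 (19), the start sites of BYSL and MED20 (16) and those of FRS3, PRICKLE4 and TOMM6 (14).

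The strongest CCND3 interaction did not use this bin of the upstream starts. It joined the 3′ bin to an intron bin at chr6:42015001-42020000 over 80 kb with 67 contacts (51.9 to 85.1), 2.48 times the median at that distance and rank 20 among 874, and neither of its bins held a motif. The bin of the canonical start, which begins at chr6:41940001, was not an anchor. The window overlaps that of TAF8, which shared 10 of its 11 interactions with CCND3, and USP49 shared 7 of its 7.

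**Figure D3:**
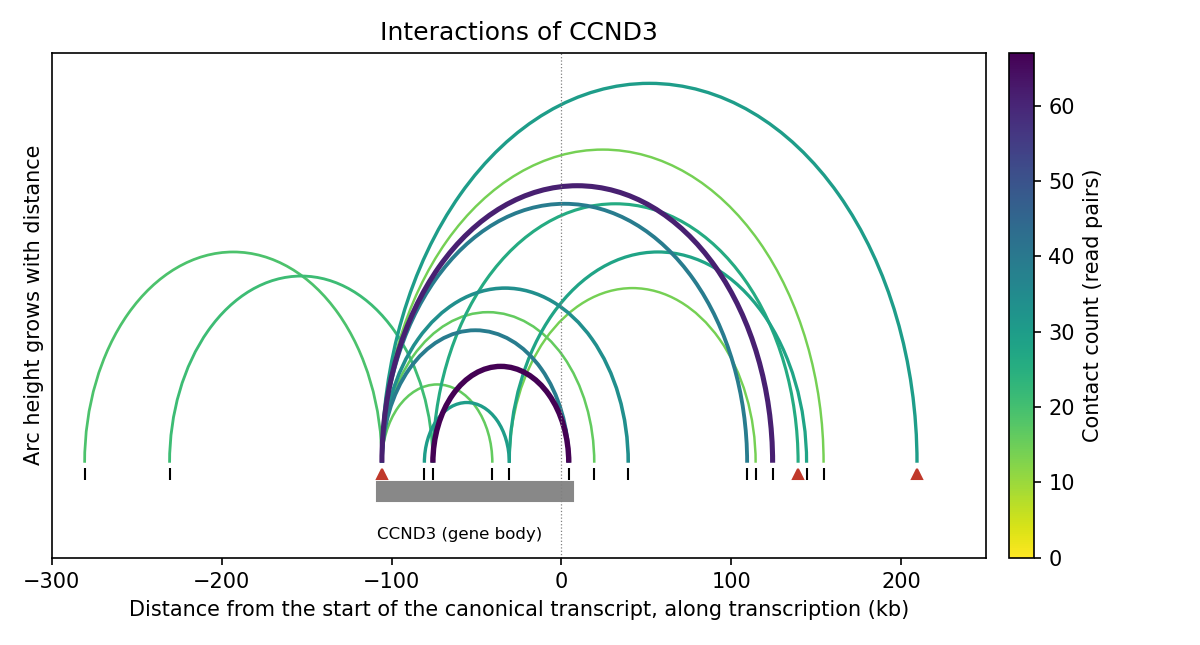
Interactions of CCND3 with both ends between 300 kb upstream and 250 kb downstream of the canonical start (15 of 16), drawn as arcs over distance along transcription (x axis, kb), with color for the contact count. Red triangles are anchor bins with an HLF motif, black ticks anchor bins without one and the gray bar is the gene body: most arcs fan out from the triangle at the upstream end of the gene, the bin with 10 interactions.

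CCND2 (ENSG00000118971, chr12:4269771-4305353, plus strand), which encodes cyclin D2, had 2 interactions, both from its 3′ part and without a start site of the gene. They joined it to the start-site bin of NTF3 at 1195 kb with 29 contacts (19.4 to 41.6) and to DYRK4 at 280 kb with 28 (18.6 to 40.5). In the first, both bins held a motif, and in the other neither did.

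CCND1 (ENSG00000110092, chr11:69641156-69654474, plus strand), which encodes cyclin D1, had 0 interactions, as did 47.3% of the 5120 genes with a window of like length. The nearest anchors lay 86.2 kb before and 266 kb after the gene. Between them no bin was an anchor for 365 kb, rank 42 among 2328 such stretches of chromosome 11, where the median stretch over the genome was 15.0 kb. This stretch also contains LTO1, FGF19, FGF4 and FGF3 and 8 HLF motifs. It was spanned by 2 interactions, with 38 and 21 contacts.

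RB1 (ENSG00000139687, chr13:48303744-48599436, plus strand), the substrate of these kinases, had 35 interactions, 8 of them with both ends in its window. A further 21 reached upstream (median 29 contacts) and 6 downstream (median 28). Upstream the main partner was a bin in ITM2B, the neighboring gene, at chr13:48235001-48240000. This bin had 24 interactions in all, rank 62 among the anchors of the list, and 10 of them ended in the RB1 window. It holds the 5 motifs shown above. Its strongest contact, 69 (53.7 to 87.3), was with chr13:48560001-48565000, a bin 325 kb away that holds 1 motif. It lies in an intron near the far end of the annotated RB1 body, beyond RCBTB2, another gene within that body. No other of the 200 interactions at that distance had a higher count, and the ratio to their median was 2.88. The ITM2B bin also had 58 contacts (44 to 75) with chr13:48290001-48295000 just upstream of RB1, and the other 8 ranged from 18 to 36.

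Within RB1, the bin at chr13:48445001-48450000, 144 kb into the gene, had 10 interactions with 14 to 30 contacts, and it contains no motif. The bin at the far end had 6. At least 1 of the 4 bins with 5 or more RB1 interactions, the ITM2B bin among them, was an end of 30 of the 35. The start bin of RB1, chr13:48300001-48305000, was an anchor of 5 interactions, unlike the canonical start bins of CDK6 and CCND3. Its counts were 29 (19.4 to 41.6) with a bin 110 kb upstream and 25 (16.2 to 36.9) with SUCLA2. With a bin inside RB1 that overlaps an exon it had 20 (12.2 to 30.9). The others were 18 (10.7 to 28.4) with a bin near ITM2B and 14 (7.7 to 23.5) with MED4. The intervals of all 5 overlap, so their order is not resolved. The 2 motifs of this bin lie upstream of the gene, where RB1-DT, a noncoding RNA read in the other direction, begins. An internal start bin at chr13:48380001-48385000 had 30 contacts with ITM2B.

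**Figure D4:**
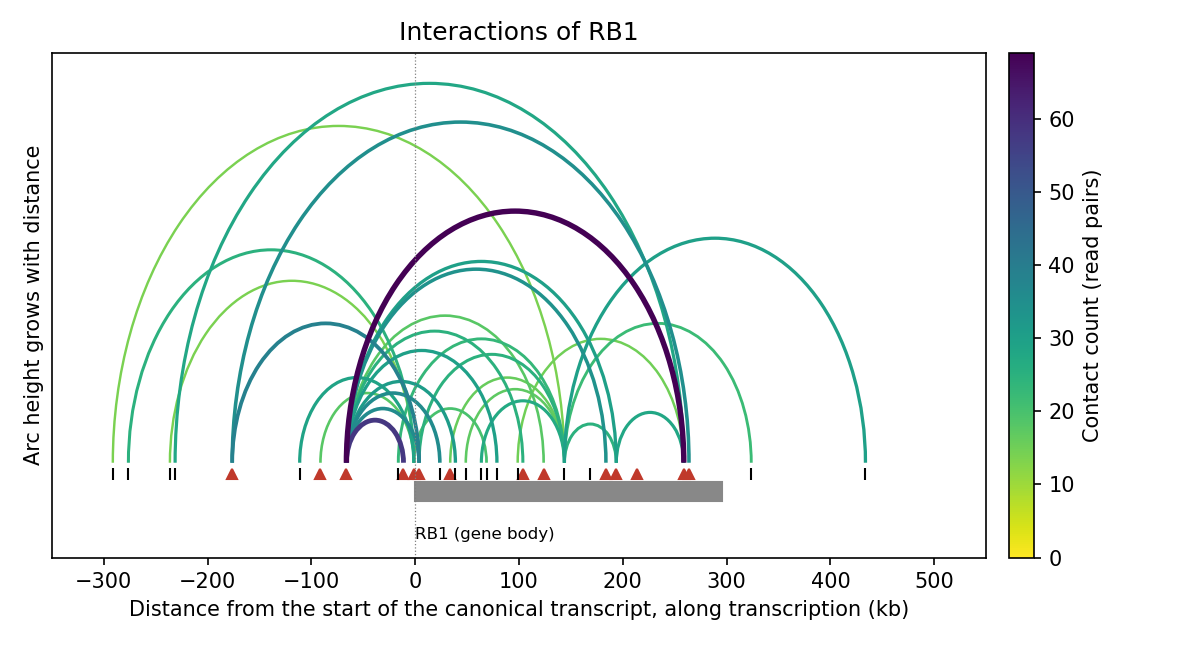
Interactions of RB1 with both ends between 350 kb upstream and 550 kb downstream of the canonical start (29 of 35), drawn as arcs over distance along transcription (x axis, kb), with color for the contact count. Red triangles are anchor bins with an HLF motif, black ticks anchor bins without one and the gray bar is the gene body: the darkest arc, 69 contacts, joins the ITM2B bin upstream to the far end of RB1.

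Of the RB1 interactions, 13 of 35 had a motif in both bins, beside 16.2% of the list, and the ITM2B bin was an end of 10 of the 35. Long contacts included 32 (21.9 to 45.2) over 1410 kb, 28 (18.6 to 40.5) over 2415 kb with a bin near DLEU7, and 19 (11.4 to 29.7) over 2510 kb with the start-site bin of ZC3H13. LPAR6, which lies in an RB1 intron, shared 15 of its 15 interactions with RB1, and ITM2B 10 of its 24. RCBTB2 (chr13:48488963-48533256), also inside the annotated body, shared 5 of its 5. The body spans all annotated RB1 transcripts, and interactions were not assigned to single transcripts.

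Among the inhibitors, CDKN1B (ENSG00000111276, chr12:12685498-12722369, plus strand), which encodes p27, had 5 interactions. The highest count was 30 (20.2 to 42.8), between the start-site bin of DUSP16, a phosphatase of MAP kinases, and a bin of APOLD1 just beyond CDKN1B. An annotated CDKN1B start was in the bin of 2: one with ETV6, 925 kb away, with 21 contacts (13.0 to 32.1), and one with DUSP16, with 16 (9.1 to 26.0). ETV6 encodes a transcription factor of blood formation. The remaining 2 joined GPR19 and APOLD1 start-site bins beside the gene to another APOLD1 bin with 22 and 20 contacts. These intervals overlap, so the 5 counts are not in a resolved order, and the bin of the canonical start was not an anchor. Every one had a motif in 1 of its bins. APOLD1 and GPR19 each shared 3 of the 5.

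CDKN1A (ENSG00000124762, chr6:36676460-36687337, plus strand), which encodes p21, had 1 interaction, of 26 contacts (17.0 to 38.1) over 75 kb. Its near bin holds the start of RAB44 and overlaps only the 10-kb flank of CDKN1A, and neither bin has a motif. With the gene body alone CDKN1A had 0.

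CDKN2A (ENSG00000147889, chr9:21967752-21995301, minus strand) and CDKN2B (ENSG00000147883, chr9:22002903-22009305, minus strand) had 0 interactions. Genes without one made up 36.2% of the 4075 genes with a window like that of CDKN2A and 55.5% of the 5708 like that of CDKN2B, so a count of 0 is common. The stretch around them was less so: no anchor bin lay in the 395 kb of chr9:21820001-22215000, rank 29 among 2249 stretches on chromosome 9. It holds 37 HLF motifs, and CDKN2A and CDKN2B are the 2 protein-coding genes that lie wholly inside it. The bins at its edges were joined to each other. From chr9:21815001-21820000, in MTAP, to chr9:22215001-22220000 there were 95 contacts (76.9 to 116) over 400 kb, the highest of 206 interactions at that distance, whose median was 25. In all 18 interactions spanned both genes, with 12 to 95 contacts and a median of 24.5, and the next highest had 39. Of the 18, 9 were above the median of their distance. Whether the DNA of this stretch is present in the line was not tested.

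**Figure D5:**
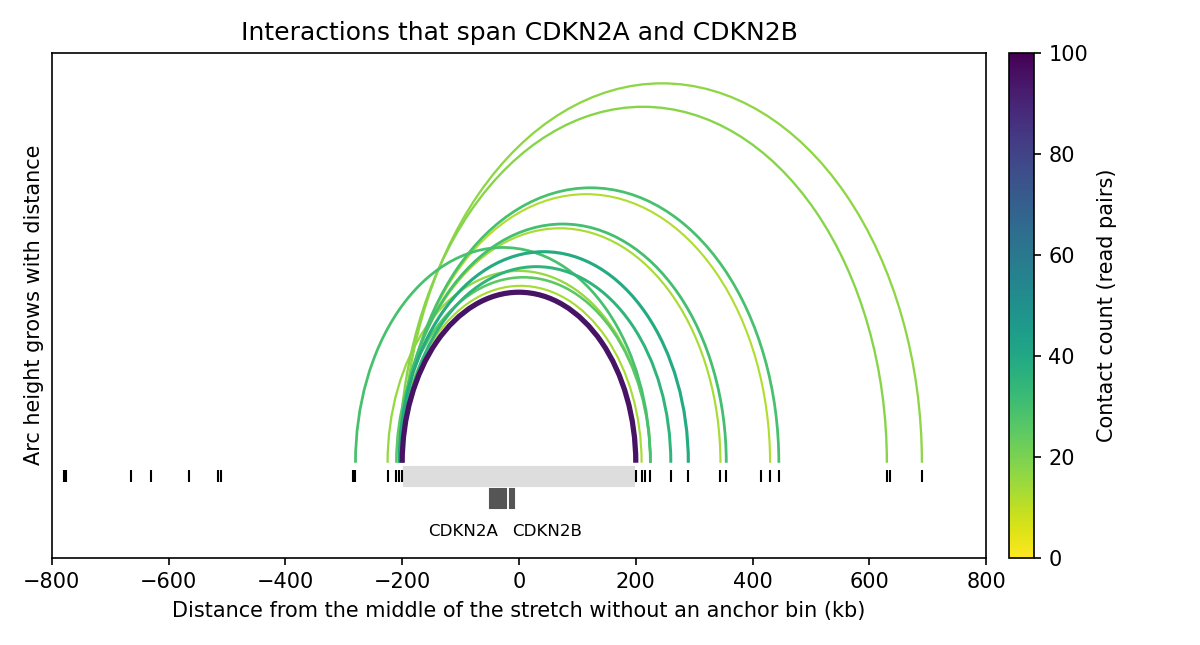
Interactions that span CDKN2A and CDKN2B with both ends within 800 kb of the middle of the stretch without anchors (13 of 18), drawn as arcs over distance (x axis, kb), with color for the contact count. Black ticks are anchor bins, the light bar is the 395-kb stretch without one and the dark bars are the genes: the single dark arc, 95 contacts, joins the 2 edges of the stretch.

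Other genes of the cell cycle were read with the same rule. Of 35 such genes, 25 (71.4%, beside 64.5% of all) had at least 1 interaction, and together they had 71, none of them shared with the 10 G1 genes. Their median was 1 and the highest number 13, in E2F6, a repressor of the E2F family, followed by CCNB2 (9), SKP2 and FBXW7 (5 each), which encode receptors of ubiquitin ligases that degrade cell cycle proteins, and RBL1 (4), a relative of RB1. The highest contact counts were 58 (44 to 75) in E2F6, 56 (42.3 to 72.7) in E2F5 and 49 (36.3 to 64.8) in TFDP1, a partner of E2F proteins. Those of E2F6 and TFDP1 touch only the 10-kb flank of the gene and not its body. With the gene body alone, 17 of the 35 genes had an interaction. The share of all protein-coding genes is not given at that setting, so this count has no comparison. The upper ends of the intervals of these 3 counts lie below the lower ends of those of the 4 highest CDK6 counts. All are maxima, CDK6 had 52 interactions to draw them from, and the distances differ, so this is not a like comparison. Since PCR copies were kept, the intervals are also too narrow. CCNE1, CDK1, CCNB1, CDK7, CDKN2C, CDKN2D, E2F2, E2F3, E2F4 and CKS1B had 0. Expression of these genes was not measured in this list.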

How the data were processed

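HiChIP was measured in 2 replicates of TCF3-KO HAL-01 cells. The authors trimmed reads (Trim Galore 0.6.6, per the labels), pooled the replicates, aligned to hg38 with BWA-MEM, parsed pairs with pairtools without removing duplicates, called reference peaks with MACS2 and called interactions with FitHiChIP in 5-kb bins, 50 kb to 3 Mb apart. Its version is not given in the sources used here. The deposited contact counts are raw numbers of read pairs per bin pair, with their sum over each merged group. The deposited p-value and q-value (under 0.01) are FitHiChIP's, and a deposited fraction gives the share of significant pairs in a group. PCR copies were kept, so counting intervals are too narrow.

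From this list, the interactions of each gene body plus 10 kb (GENCODE 44, hg38) were counted, with exact Poisson intervals on contact counts, Wilson intervals on shares and order-statistic intervals on medians, all at 95%. HLF motifs were exact matches in hg38, and the surroundings of some of them are not reported here. Bins of an interaction shared at most 42 of their 31-mers, so none reached the 500 taken as near-identical. The members, the cell cycle list and the naming rule were chosen with earlier results of these data known. That rule names all 10 genes, their 3 interactions with the largest contact count, those at a start site, the busiest anchor, up to 2 neighbors sharing most interactions, and of the other cell cycle genes the 5 with most interactions and 3 with the largest contact count. Further anchors and partners, such as CDK14, and the stretches without anchors were picked with their values in view. The alternatives tried were other flanks, merged bins, stricter q-values, contact counts and distances, and other definitions of motif and start site. Counting code was tested on simulated lists. The tools were pandas 2.3.3, numpy 2.4.6 and scipy 1.17.1 in Python 3.11.15, with matplotlib 3.10.9 for plots.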

Additional observations from a re-analysis of the deposited data

How the results depend on the processing

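Of 59 recomputed summary values, 50 stayed within 1.5 times (counts) or within the interval of the value reported, and 9 moved. Interactions at a start site of a member fell from 41 to 27 with a q-value under 1e-05 and to 23 without CDK6, and were 74 with bins within 10 kb of a start site and 6 with the canonical start only. The median contact count went from 27 to 30 with a q-value under 1e-05 and to 29.5 with at least 20 contacts. The motif share went from 65.2% to 5.22% with TTACGTAA alone and to 46.1% in bins 25 kb outside. Without CDK6 the 115 interactions became 63. Of 84 values of single genes, 5 moved: CDKN1A from 1 to 0 and CDKN1B from 5 to 2 with no flank, CDKN1B from 5 to 2 with a q-value under 1e-05, CCND2 from 2 to 1 within 1 Mb, and the strongest CDKN1B interaction by summed contacts had 20 contacts. Leaving out CDK6 and the canonical start alone were chosen after seeing the data. Each change follows from which interactions or bins the setting admits. No value without replicate 1 or 2 could be computed from the merged list. No paired analysis was possible because the list has 1 group and no columns per replicate.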
